A study of Saccharomyces cerevisiae with 118 samples.

Results

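Messenger RNA levels of 8 genes of the flocculation and filamentation system of budding yeast (Saccharomyces cerevisiae) were followed through replicative ageing. The genes were FLO1, FLO5, FLO9, FLO10, FLO11, BSC1, PRM7 and TEC1, taken by name from the 6664 nuclear genes of the deposited tables. All 8 were found and passed the filter on low values, set on the mean over all samples compared, in every comparison. FLO11 is listed in the files under its synonym MUC1 and was matched by its systematic name, YIR019C.

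Flocculins are large glycoproteins of the yeast cell wall. FLO1, FLO5, FLO9 and FLO10 encode lectins that bind sugars on neighbouring cells and so pull cells into clumps, whereas FLO11 encodes the adhesin needed for invasive growth into agar and for the elongated, chained cells of pseudohyphae. TEC1 encodes a transcription factor that, with Ste12 and downstream of a MAP kinase cascade, switches on filamentation genes. BSC1 encodes a protein related to Flo11 whose gene was recognised by a stop codon that may be read through, and PRM7 was named as a gene regulated by mating pheromone.

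The samples came from diploid cells of the mother enrichment programme (MEP), in which oestradiol activates a Cre recombinase driven by the daughter-specific SCW11 promoter, so that newborn daughters stop dividing and biotin-labelled mothers can be purified when old. Wild-type cells were aged on galactose, fructose, sucrose, raffinose with galactose, raffinose, potassium acetate or glucose, and were sampled at log phase and after 24 h, 48 h or 72 h. Strains cat8, cox9 gal80 and snf4 were grown on galactose, and Pgpd-HAP4, with HAP4 driven by the GPD promoter on 1 chromosomal copy, on glucose. In a media-shift series cells spent 24 h on glucose or galactose and a second 24 h on the same or the other sugar (3 samples per group). Old (48 h) cells of Pgpd-HAP4 and of wild type from glucose cultures were also sorted on wheat germ agglutinin (WGA), a lectin that stains bud scars. The study's methods name the intensity of GFP as a sort criterion beside WGA. In experiment E36 the Pgpd-HAP4 labels also carry a GFP class, with high GFP for low WGA and low GFP for high WGA. The labels of E66 give WGA alone, so the samples of a Pgpd-HAP4 fraction differ in their sort labels. Finally, 13 mutants were sampled on glucose at log phase and 48 h, with 1 sample each (adr1, cat8, clb5, dot6 tod6, gcn4, hap4, mig1, pmr1, rox1, sip4, snf4, tec1 and yak1), and pmr1 also at 24 h. Every strain, wild type included, carries the MEP alleles, and the labels do not say how the samples of a group relate beyond an experiment code (such as E30_1, E34 or E56, or none), so p-values measure the spread between these samples only.

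Libraries held 2901884 to 15288346 reads in the carbon source table (median 8552431, 59 samples), 4542794 to 16704701 in the shift series, 561582 to 5483467 in the sorted fractions and 3725321 to 22453464 in the table of glucose mutants. The targeted genes followed the labels, with at most 1 CAT8 read in cat8 cells, 2 SNF4 reads in snf4 cells, and 3 COX9 and 4 GAL80 reads in cox9 gal80 cells. Genes made mainly by daughters (10 genes of daughter cell separation, such as DSE1 and PRY3) served as a marker of cells other than old mothers, and none of them was at 0 reads in all samples of a group. Per the study's methods, aged cells were purified mothers, whereas log phase cells came straight from the culture. The paper describes a large share of newborn daughters among the latter. Each comparison of aged with log phase cells thus also compares purified mothers with a mixed culture. In bulk samples, fewer cells of a type and less RNA per cell cannot be told apart.

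3 stretches of sequence are needed to read the values, and all are from the R64 genome in RefSeq. The first is the 250 bases before the TEC1 start codon (chromosome II, 408919 to 409168, plus strand), with 2 copies of TGAAACA, the site known for Ste12, and 1 CCCCGC, the core of the site known for Mig1, in capitals.
TEC1: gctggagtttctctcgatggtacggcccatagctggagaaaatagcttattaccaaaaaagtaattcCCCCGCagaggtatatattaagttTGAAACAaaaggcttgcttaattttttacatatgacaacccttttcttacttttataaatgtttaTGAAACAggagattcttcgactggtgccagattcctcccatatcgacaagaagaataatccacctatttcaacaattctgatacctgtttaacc
TGAAACA, searched on both strands, lay in 6.09% of 5975 windows of this kind, and a match is a description and not a bound site. The second shows the stop codon that ends BSC1, in capitals (chromosome IV, 384586 to 384615, minus strand).
BSC1: gatccaaccactTAAgtagtaagttcaagt
PRM7 begins 519 bases downstream of BSC1 on the same strand. Over the 3603 bases between the start of BSC1 and the end of PRM7 the reading frame is continuous, and its 2 stop codons in frame are those of BSC1 and of PRM7, with 0 between them. The annotated PRM7 start thus lies inside the frame opened by BSC1. The third sequence is a run of 75 bases, the read length, found unchanged in FLO1 (chromosome I, 203756 to 203830, plus strand), FLO5 (chromosome VIII, 525745 to 525819, plus strand) and FLO9 (chromosome I, 27541 to 27615, minus strand).
FLO1, FLO5 and FLO9: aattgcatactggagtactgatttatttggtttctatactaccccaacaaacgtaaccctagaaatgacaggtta
A read from this run cannot be given to one gene. Of all 75-base windows, 41.6% of those of FLO1, 14.2% of those of FLO5 and 52.8% of those of FLO9 also occur elsewhere in the genome, against 0 for FLO10, FLO11, BSC1, PRM7 and TEC1. How such reads were counted is not given in the sources used here, so the values of FLO1, FLO5 and FLO9 are uncertain in a way that those of the other 5 genes are not.

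The coding regions lie at chromosome I 24000 to 27968 (FLO9, minus strand) and 203403 to 208016 (FLO1, plus strand), II 409169 to 410629 (TEC1, plus strand), IV 381985 to 384081 (PRM7, minus strand) and 384601 to 385587 (BSC1, minus strand), VIII 525392 to 528619 (FLO5, plus strand), IX 389572 to 393675 (FLO11, minus strand) and XI 646356 to 649865 (FLO10, plus strand). Per kilobase of coding region, the 5 flocculins were low in log phase cells on glucose. Mean levels were 60.9 normalised counts per kb for FLO5, 30.4 for FLO10, 18.3 for FLO11, 12.8 for FLO1 and 5.06 for FLO9, against 589 for PRM7, 524 for BSC1 and 107 for TEC1 (n = 3). A normalised count is the number of reads on the gene divided by a factor for the size of its library.

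**Figure D1:**
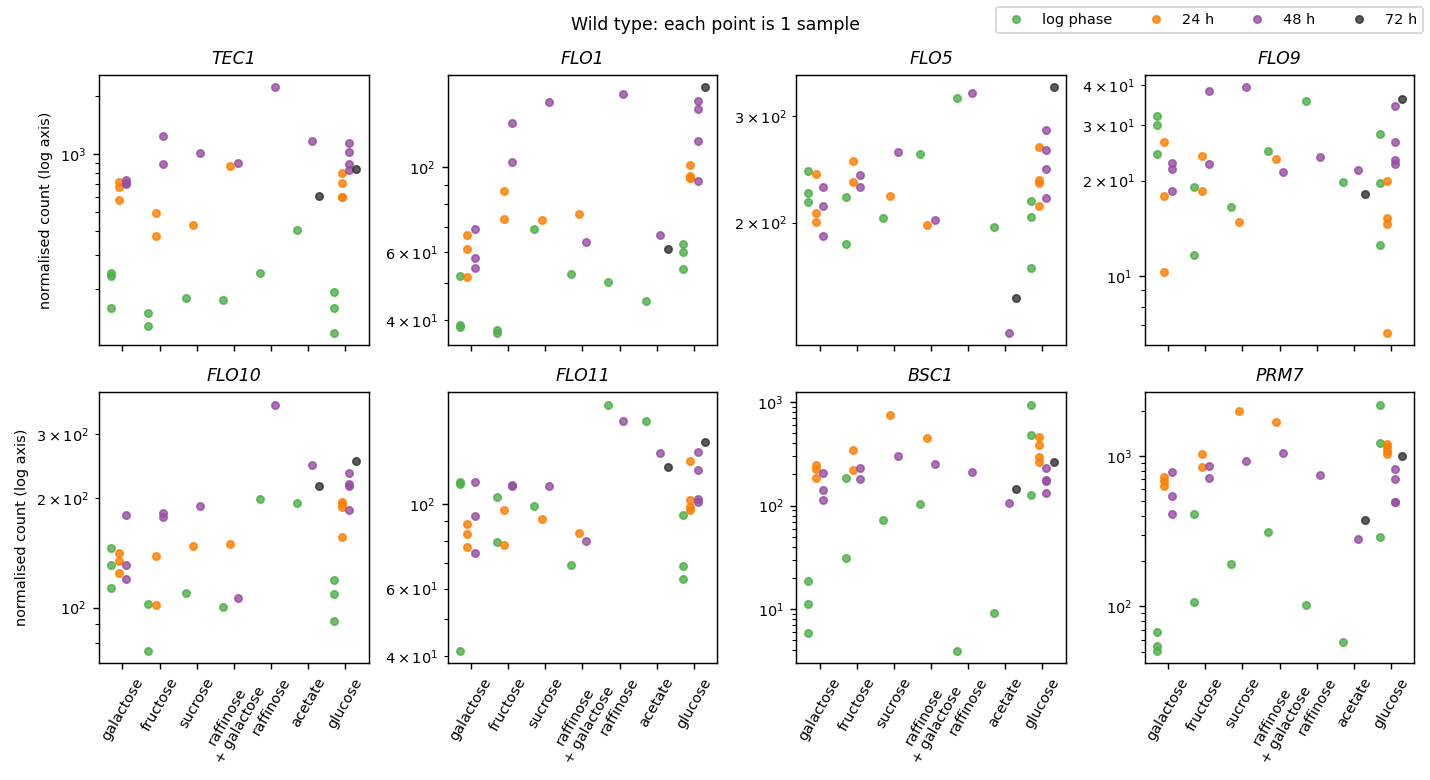
Normalised counts (log axis) of the 8 genes in wild-type cells, by medium and age, with 1 point per sample and the colour giving the age. TEC1 lay between 700 and 729 in the 3 samples aged 48 h on galactose and between 158 and 242 at log phase, and its oldest samples lay above log phase in each medium shown.

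The first question was how the genes change as cells age. TEC1, the regulator, rose with age on each sugar that could be tested. On glucose it stood at 831, 892, 1028 and 1137 normalised counts at 48 h, against 118, 160 and 192 at log phase. The 2 groups were far apart, and the 4 samples aged 24 h (599, 599, 709 and 798) lay between them. Changes were tested with limma on values brought to one distribution across the samples compared (quantile normalisation, which the study used for its own tests), and a gene was called at an adjusted p below 0.01. The log2 change of TEC1 was 2.36 (SE 0.15, adjusted p = 1.5e-06) at 48 h and 1.94 (SE 0.15, adjusted p = 1.8e-05) at 24 h. Without quantile normalisation, on the values as deposited, the 48 h change was 2.65.

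On galactose TEC1 reached 700, 705 and 729 normalised counts at 48 h, against 158, 234 and 242 at log phase. Its log2 change was 1.71 (SE 0.15, adjusted p = 5.1e-04), and at 24 h it was 1.60 (SE 0.16, adjusted p = 0.0023). On fructose it stood at 884 and 1238 at 48 h, against 128 and 150 at log phase, a log2 change of 2.66 (SE 0.18, adjusted p = 1.7e-04). The fructose call rests on groups of 2 and was lost without either 48 h sample (adjusted p = 0.023 and 0.017), and the 24 h galactose call was lost with a block for the experiment (adjusted p = 0.020), without a filter on low values (adjusted p = 0.016) and without any one of 4 of the 6 libraries (adjusted p up to 0.022). Single samples on the other media showed the same order: 1018 at 48 h against 179 at log phase on sucrose, 898 against 174 on raffinose with galactose, 2232 against 240 on raffinose and 1171 against 403 on acetate. Division is slow on acetate, and the paper takes 72 h there as the match in age for 48 h on glucose. At 72 h on acetate TEC1 was at 606. The raffinose sample at 48 h was the highest for TEC1 among the 59 samples of this table. Over strains and media, TEC1 was higher in the aged sample than in the log phase sample of the same experiment in 50 of 50 pairs, by 0.59 to 3.22 on the log2 scale of the deposited values (median 2.03). Repeat samples of a strain, medium and age within an experiment were left out of these pairs, as were the 48 h cells of the shift series. The share of such pairs over all genes was not counted.

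Beside TEC1, few of the genes passed the test on glucose. At 48 h, 1 of the 8 rose and 1 fell, where 51.7% of all 5974 genes tested were called; at 24 h the counts were again 1 and 1, against 31.9% of all genes. The median change of the 8 was -0.30 at 48 h, against -0.12 over all genes. On galactose 3 of the 8 (TEC1, BSC1 and PRM7) rose and 0 fell at both ages, where 5.48% of all genes were called at 48 h and 2.52% at 24 h. On fructose 1 rose and 0 fell, against 30.7%.

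At 48 h on glucose the sign of the change of FLO1, FLO5, FLO9 and FLO11 depended on the scaling, whereas FLO10 was positive on both scales and passed on 1. The normalised counts themselves were higher in old cells. FLO1 stood at 92.1, 117, 142 and 149 at 48 h, against 54.3, 60.2 and 62.9 at log phase, with no overlap. FLO10 stood at 185, 217, 219 and 235 at 48 h, against 91.8, 109 and 119 at log phase, and FLO11 at 101, 103, 123 and 137, against 63.7, 68.6 and 93.4. On this deposited scale FLO1 (log2 change 1.06, adjusted p = 5.0e-04), FLO10 (1.01, adjusted p = 8.5e-05) and FLO11 (0.63, adjusted p = 0.0097) were called higher. After quantile normalisation the log2 change was -0.11 for FLO1 (adjusted p = 0.64), 0.31 for FLO10 (adjusted p = 0.082) and -0.49 for FLO11 (adjusted p = 0.045), and none of the 3 passed. FLO9 even passed as lower, by -1.27 (SE 0.29, adjusted p = 0.0032), with a deposited change of 0.46 (adjusted p = 0.21). FLO5 changed by -0.09 after quantile normalisation and 0.37 as deposited, and passed on neither scale.

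Low genes as a class moved up on the deposited scale. Quantile normalisation lowered the median change of all genes by 0.16 at 48 h on glucose, 0.15 on fructose and 0.19 in the shift series, and the share of called genes that were higher was 41.2% after it and 53.2% as deposited. The lowest quartile of genes by mean level had a median deposited change of 0.88 at 48 h on glucose, and all 5 flocculins fell in it. FLO1 moved further than 55.5% of that quartile and FLO5 further than 33.9%. TEC1 lay in the second quartile, whose median change was 0.13, and moved further than 98.8% of it. On galactose the lowest quartile had a median deposited change of 0.20.

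FLO9 was counted from 12 to 36 reads per library on glucose at log phase and 48 h. Its values at 48 h were 22.5, 23.3, 26.4 and 34.4, against 12.5, 19.7 and 28.1 at log phase, and these overlapped. The 24 h call for FLO9 (log2 change -1.71, SE 0.42, adjusted p = 0.0080) was lost without the filter on low values (adjusted p = 0.023), as deposited (-0.54, adjusted p = 0.31) and with a block for the experiment (adjusted p = 0.020), and the block also ended the 48 h call (adjusted p = 0.021). The 24 h call was also lost without any one library but the 24 h sample of E34 (adjusted p up to 0.032). The 48 h call was lost without 48 h replicate 3 or log phase replicate 2 or 3 (adjusted p up to 0.015).

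On galactose no flocculin passed at 24 h or 48 h after quantile normalisation, nor by limma-voom, and FLO9 was the nearest at 48 h (log2 change -1.31, SE 0.26, adjusted p = 0.014). FLO1 stood at 54.8, 58.1 and 68.9 normalised counts at 48 h, against 38.4, 38.7 and 52.0 at log phase, a quantile-normalised log2 change of -0.16. FLO10 stood at 120, 131 and 179, against 113, 131 and 146. The difference between the media in the change to 48 h was -0.02 for FLO1 (SE 0.29, adjusted p = 0.96) and -0.44 for FLO10 (SE 0.23, adjusted p = 0.16). For FLO10 that difference was called as deposited (-0.88, adjusted p = 0.0084). On fructose FLO1 stood at 103 and 130 at 48 h, against 37.0 and 37.7 at log phase, with a log2 change of 0.40 (adjusted p = 0.18) after quantile normalisation and 1.63 (adjusted p = 0.0011) as deposited.

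**Figure D2:**
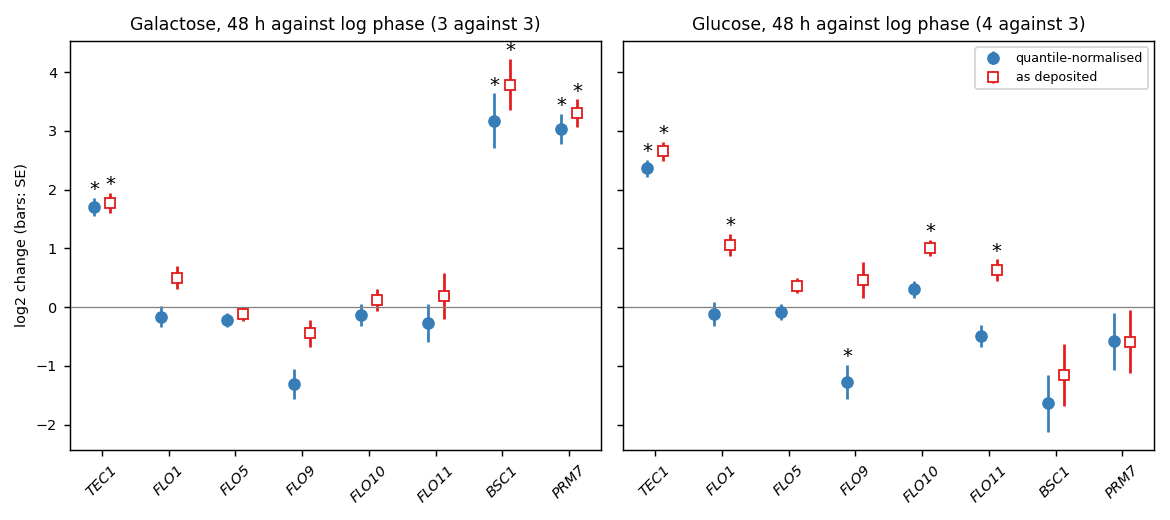
Log2 change at 48 h against log phase, with SE, on galactose (left, n = 3 and 3) and glucose (right, n = 4 and 3), after quantile normalisation (filled circles) and on values as deposited (open squares), with * for an adjusted p below 0.01. On glucose FLO1 moves between -0.11 and 1.06, FLO11 between -0.49 and 0.63 and FLO9 between -1.27 and 0.46 with the scaling, whereas TEC1 stays at 2.36 and 2.65.

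BSC1 and PRM7 are neighbours in one reading frame, and both rose with age on galactose. BSC1 stood at 112, 142 and 205 normalised counts at 48 h on galactose, against 5.86, 11.3 and 18.7 at log phase, where 8, 14 and 20 reads were counted. PRM7 stood at 413, 546 and 783, against 50.8, 54.2 and 67.5. The log2 change was 3.18 for BSC1 (SE 0.46, adjusted p = 0.0050) and 3.04 for PRM7 (SE 0.25, adjusted p = 4.1e-04). At 24 h the changes were larger, 3.94 for BSC1 (SE 0.42, adjusted p = 0.0027) and 3.40 for PRM7 (SE 0.16, adjusted p = 1.5e-04). The BSC1 call at 48 h was lost without any one of 4 of the 6 libraries (adjusted p up to 0.032) and without the filter on low values (adjusted p = 0.027), and that at 24 h with the filter removed (adjusted p = 0.018), the experiment as a block (adjusted p = 0.017) or any one of 4 of the 6 libraries left out (adjusted p up to 0.024).

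On glucose BSC1 stood at 131, 171, 177 and 232 at 48 h, against 128, 477 and 946 at log phase, and PRM7 at 492, 498, 701 and 818, against 290, 1216 and 2201. The log phase samples decide these comparisons. The lowest log phase value of both genes came from experiment E34, in which BSC1 and PRM7 were higher at 48 h, whereas in the 2 other experiments with a log phase sample they were lower at 48 h. With all samples the log2 change was -1.64 for BSC1 (SE 0.48, adjusted p = 0.013) and -0.58 for PRM7 (SE 0.49, adjusted p = 0.31), and neither passed. Without the E34 log phase sample both were called lower, by -2.24 (adjusted p = 2.8e-04) and -1.31 (adjusted p = 0.0024). In the shift series, a further set of log phase cells on glucose, BSC1 was at 46.3, 58.1 and 84.0 and PRM7 at 140, 154 and 195, below the carbon source samples.

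The change to 48 h differed between the media for both genes, by 4.65 on the log2 scale for BSC1 (SE 0.75, adjusted p = 8.2e-04) and 3.56 for PRM7 (SE 0.67, adjusted p = 0.0021), positive where the change on galactose exceeded that on glucose. The glucose side of both differences rests on the log phase samples described above, and in E34 both genes rose with age on glucose. In the shift series BSC1 stood at 171, 174 and 181 in cells kept on glucose, against 46.3, 58.1 and 84.0 at log phase. The other 6 genes did not pass this test, where 15.1% of all genes did. Of the media with 1 sample, BSC1 was at 299 at 48 h against 73.0 at log phase on sucrose, at 251 against 104 on raffinose with galactose, and at 105 against 9.24 on acetate. At 72 h on acetate BSC1 was at 143. On raffinose it stood at 212 at 48 h, with 3 reads at log phase.

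Cells on galactose were next compared with cells on glucose at each age. At log phase 0 of the 8 genes were higher and 2 lower, where 12% of all genes were called. These were BSC1 (5.86, 11.3 and 18.7 on galactose, against 128, 477 and 946 on glucose, log2 change -5.33, SE 0.74, adjusted p = 0.0032) and PRM7 (50.8, 54.2 and 67.5, against 290, 1216 and 2201, log2 change -4.20, SE 0.66, adjusted p = 0.0050). Within the 2 experiments that held both media, the deposited difference was -3.50 and -4.67 for BSC1 and -2.51 and -4.17 for PRM7. Both calls were lost with limma-voom on the recovered reads (adjusted p = 0.024 and 0.023), without the filter (adjusted p = 0.016 and 0.022) and without any one of 4 of the 6 libraries (adjusted p up to 0.021 and 0.030).

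At 24 h 0 were higher and 3 lower on galactose, where 20.1% of all genes were called. PRM7 stood at 633, 679 and 722 on galactose, against 1027, 1075, 1155 and 1202 on glucose (log2 change -0.76, SE 0.07, adjusted p = 3.3e-05). FLO1 stood at 51.8, 61.1 and 66.6, against 93.5, 93.9, 94.6 and 101 (log2 change -0.59, SE 0.12, adjusted p = 0.0041). FLO10 stood at 124, 134 and 142, against 157, 190, 192 and 195 (log2 change -0.48, SE 0.11, adjusted p = 0.0065). None of the 3 pairs of groups overlapped, though the share of all genes without overlap was not counted. FLO1 and FLO10 were lower on galactose within both experiments that held both media. FLO10 was lost with limma-voom (adjusted p = 0.011), without the filter (adjusted p = 0.020) and, as were the other 2, in a single fit over all groups (adjusted p = 0.056, against 0.013 for FLO1 and 0.12 for PRM7), and FLO1 with a block for the experiment (adjusted p = 0.013). FLO10 was also lost without any one of 5 of the 7 libraries (adjusted p up to 0.028) and FLO1 without any one of 4 (adjusted p up to 0.017).

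At 48 h 0 were higher and 1 lower, where 18.9% of all genes were called. This was TEC1, at 700, 705 and 729 on galactose against 831, 892, 1028 and 1137 on glucose (log2 change -0.49, SE 0.11, adjusted p = 0.0081), a call that was lost without any one of 6 of the 7 libraries. FLO1 stood at 54.8, 58.1 and 68.9 on galactose, against 92.1, 117, 142 and 149 on glucose, and the groups did not overlap. Its log2 change was -0.58 (adjusted p = 0.033) after quantile normalisation and -1.02 (adjusted p = 0.0011) as deposited, and -0.92 (adjusted p = 4.0e-04) with the experiment as a block. BSC1 and PRM7, far apart between the media at log phase, differed by 0.00 (SE 0.22) and -0.12 (SE 0.22) at 48 h.

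Mutants that affect respiration or its control gave few calls, except snf4. Pgpd-HAP4 cells on glucose had 0 of 8 genes called against wild type at log phase and at 48 h, where 3.32% and 0.429% of all genes were called; at an unadjusted p under 0.05 there were 2 and 1, and with limma-voom 0 and 0. Cat8, an activator of genes for growth without sugar, left 0 called in the cat8 strain on galactose at log phase and at 48 h (0.0516% and 0.454% of all genes called; 1 and 0 at an unadjusted p under 0.05; 0 and 0 with limma-voom). The respiration-defective cox9 gal80 strain had 0 called at both ages (0.103% and 3.07% of all genes called; 1 and 3 at an unadjusted p under 0.05; 0 and 0 with limma-voom). The largest difference there was BSC1 at 48 h, with 58.5 and 99.2 in cox9 gal80 cells, against 112, 142 and 205 in wild type (log2 change -1.25, SE 0.26, adjusted p = 0.021). TEC1 stood at 844 and 894 in the same cox9 gal80 cells, against 700, 705 and 729, with no overlap and an adjusted p of 0.10. Per the paper, this strain had a much lower replicative age by then. The 48 h comparison is thus matched in hours and not in divisions.

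SNF4 encodes the activating subunit of the AMP-activated kinase Snf1, which cells need to use sugars other than glucose. After 24 h on galactose 5 of the 8 genes were higher and 0 lower in snf4 cells than in wild type, where 12.5% of all genes were called, and the median change of the 8 was 0.89 against 0.00 over all genes. TEC1 stood at 1097 and 1116 in snf4 cells, against 575, 674 and 719 in wild type (log2 change 0.76, SE 0.10, adjusted p = 9.0e-04). FLO10 stood at 268 and 295, against 124, 134 and 142 (log2 change 1.02, SE 0.12, adjusted p = 4.7e-04), and FLO1 at 134 and 136, against 51.8, 61.1 and 66.6 (log2 change 1.02, SE 0.15, adjusted p = 0.0017). BSC1 (429 and 482, against 184, 224 and 246) and PRM7 (1312 and 1505, against 633, 679 and 722) rose by 1.04 and 1.08. In none of the 5 did the groups overlap, nor did they for FLO5 and FLO11, which did not pass. How many of all genes showed no overlap was not counted. FLO11 stood at 134 and 136, against 76.9, 83.4 and 88.7, and was called as deposited (0.71, adjusted p = 0.0049) but not after quantile normalisation (0.53, adjusted p = 0.016). TEC1 was already high at log phase, at 652 in the 1 snf4 sample, against 158, 234 and 242 in wild type. In that snf4 sample BSC1 was at 17.5, PRM7 at 68.5, FLO1 at 53.5 and FLO10 at 155. The wild-type log phase sample of the same experiment, E56, held 5.86, 54.2, 52.0 and 146.

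The 2 snf4 samples and 1 of the wild-type samples came from experiment E56, and the wild-type E56 values were 575 for TEC1, 142 for FLO10, 51.8 for FLO1, 224 for BSC1 and 722 for PRM7, below both snf4 values in each case. With the experiment as a block, however, 0 of the 8 were called by limma (adjusted p between 0.025 and 0.051 for these 5). All 5 calls were lost without the filter on low values (adjusted p between 0.014 and 0.033), and 4 of them, all but PRM7, without either snf4 sample. Daughter genes moved with this comparison: their summed normalised count was 13500 to 14160 in snf4 cells, against 21710 to 25010 in wild type, with 1 of 10 higher and 9 lower. Their part in the result was not tested. Per the paper, snf4 cells on galactose died very young and yielded very few cells at 24 h. The groups are thus matched in hours and may not be matched in divisions, and the part of this was not tested.

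The shift series asked whether the sugar of the first or of the second day sets the levels in old cells. Cells kept on glucose throughout had 4 of the 8 genes higher and 1 lower than at log phase, where 66.4% of all genes were called. TEC1 stood at 836, 920 and 1007 in cells kept on glucose, against 173, 175 and 194 at log phase (log2 change 2.104, SE 0.09, adjusted p = 5.8e-08). PRM7 (545, 659 and 735, against 140, 154 and 195) rose by 1.68, FLO10 (267, 287 and 334, against 98.7, 105 and 126) by 0.86 and FLO1 (161, 166 and 194, against 44.6, 54.0 and 66.7) by 0.64, all after quantile normalisation. As deposited, 7 of the 8 were called. FLO9, the gene called lower, changed by -1.47 (adjusted p = 4.1e-04) after quantile normalisation and 0.27 (adjusted p = 0.34) as deposited. The FLO1 call (adjusted p = 0.0036) was lost without any one of 3 of the 6 libraries and without the filter (adjusted p = 0.012).

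Cells kept on galactose had 3 of the 8 higher and 1 lower than at log phase, where 40% of all genes were called. BSC1 stood at 91.8, 110 and 115 in these cells, against 3, 3 and 5 reads at log phase, and its fitted log2 change of 4.60 (SE 0.27, adjusted p = 4.0e-07) is no precise fold at such counts. Its log2 values at log phase (1.51, 1.67 and 1.69) lay below the filter of 2, so only the aged samples brought BSC1 into the test. PRM7 stood at 322, 364 and 391, against 52.1, 52.2 and 58.0 (log2 change 2.47, SE 0.11, adjusted p = 4.8e-08), and TEC1 at 669, 724 and 753, against 233, 250 and 281 (log2 change 1.46, SE 0.08, adjusted p = 2.2e-07). PRM7 and TEC1 repeat, in other cultures, calls made on galactose at 48 h in the carbon source table. BSC1 was called there too, but here it passed the filter only through its aged samples. FLO5 (173, 201 and 248, against 255, 275 and 297) was called lower by -0.52 (adjusted p = 0.0054), but not as deposited (-0.42, adjusted p = 0.012) or without the filter (adjusted p = 0.041). This call was also lost without any one log phase library (adjusted p up to 0.026) and without replicate 2 or 3 of the aged cells (adjusted p up to 0.019).

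TEC1 did not pass either test of the sugar of the second day. TEC1 stood at 895, 995 and 1043 in cells shifted to galactose, against 836, 920 and 1007 in cells kept on glucose (log2 change 0.06, SE 0.09). It stood at 642, 751 and 807 in cells shifted to glucose, against 669, 724 and 753 in cells kept on galactose (log2 change 0.07, SE 0.09). By contrast, the first sugar separated the groups that ended on galactose: TEC1 was 0.46 higher (SE 0.07, adjusted p = 5.1e-04) after a first day on glucose than after one on galactose. Among cells that ended on glucose, TEC1 was at -0.32 (SE 0.09, adjusted p = 0.038) after a first day on galactose relative to one on glucose.

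For the other members, shifting from glucose to galactose left 0 higher and 1 lower than in cells kept on glucose, where 8.72% of all genes were called. FLO10 stood at 200, 211 and 211 in the shifted cells, against 267, 287 and 334 (log2 change -0.50, SE 0.10, adjusted p = 0.0062), and this was lost without the filter (adjusted p = 0.028). The FLO10 call was also lost without any one library of the shifted cells (adjusted p up to 0.031) and without replicate 3 of the cells kept on glucose (adjusted p = 0.026). The samples of this comparison pair by replicate number, and with that pairing 3 were called lower, FLO10 (adjusted p = 0.0050), FLO1 (110, 127 and 128, against 161, 166 and 194, adjusted p = 0.0083) and PRM7 (457, 465 and 519, against 545, 659 and 735, adjusted p = 0.0029). Shifting from galactose to glucose left 2 higher and 0 lower than in cells kept on galactose, where 14.4% of all genes were called. These were BSC1 (179, 200 and 209, against 91.8, 110 and 115, log2 change 0.88, SE 0.13, adjusted p = 2.7e-04) and PRM7 (639, 683 and 775, against 322, 364 and 391, log2 change 0.99, SE 0.09, adjusted p = 8.5e-06). Both genes were thus higher in the cells whose second day was on glucose, and their groups did not overlap.

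Comparing the first day at a fixed last sugar, cells that ended on galactose had 2 of the 8 higher and 0 lower after a first day on glucose, where 26.3% of all genes were called. Besides TEC1 this was PRM7, at 457, 465 and 519 after glucose against 322, 364 and 391 after galactose (log2 change 0.37, SE 0.09, adjusted p = 0.0052). Both calls were lost without the filter and in a single fit over all groups (adjusted p between 0.012 and 0.035). The PRM7 call was also lost without any one library of the shifted cells (adjusted p up to 0.025). The same held without replicate 2 or 3 of the cells kept on galactose (adjusted p up to 0.028). Cells that ended on glucose had 0 called after a first day on galactose, where 4.44% of all genes were called, although 6 had an unadjusted p under 0.05. With limma-voom 0 were called, as deposited 3, and the deposited calls were FLO1 (-0.86), FLO10 (-0.86) and FLO5 (-0.51), all lower after galactose. With the replicate number as a block 3 were called lower, FLO10 (-0.68, adjusted p = 0.0016), FLO1 (-0.59, adjusted p = 0.0046) and TEC1 (-0.32, adjusted p = 0.0099). These comparisons share their groups of cells and are not independent of one another.

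Sorting tested the members within one aged population. The paper uses WGA as a measure of replicative age. It describes the low WGA cells at 48 h as the youngest by divisions, no longer dividing fast, and says that they can be considered senescent. Low against high WGA is thus not a contrast of old with young cells. In Pgpd-HAP4 cells aged 48 h on glucose, the low WGA fraction had 4 of the 8 genes higher and 0 lower than the high WGA fraction, where 31.6% of all genes were called on the deposited values. The median change of the 8 was 2.12, against 0.04 over all genes. Low genes rose as a class on the deposited scale with age on glucose, and the paper reports its strongest dysregulation in low WGA cells. The median over all genes is thus no matched reference for the flocculins. TEC1 stood at 1387 and 1572 in low WGA cells, against 321 and 332 in high WGA cells (log2 change 2.18, SE 0.25, adjusted p = 3.4e-04). FLO10 stood at 495 and 760, against 43.9 and 81.0 (log2 change 3.36, SE 0.45, adjusted p = 6.5e-04). FLO1 stood at 324 and 349, against 42.2 and 82.6 (log2 change 2.51, SE 0.47, adjusted p = 0.0030), and FLO5 at 520 and 539, against 106 and 149 (log2 change 2.07, SE 0.34, adjusted p = 0.0018). The groups did not overlap for these 4, but neither did they for FLO9, FLO11 and BSC1, which did not pass. How many of all genes showed no overlap was not counted. FLO11 stood at 132 and 437, against 35.5 and 73.1 (log2 change 2.24, SE 0.67, adjusted p = 0.023), and was called with the experiment as a block (adjusted p = 2.6e-04).

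BSC1 and PRM7 did not pass the test in the sorted cells, nor did FLO9 and FLO11, and no difference between genes was tested. BSC1 stood at 87.3 and 142 in low WGA cells, against 43.9 and 71.5 in high WGA cells with no overlap (log2 change 0.99, adjusted p = 0.18), and PRM7 at 291 and 800, against 444 and 837 (log2 change -0.34, adjusted p = 0.59). Without the low WGA sample of E66, PRM7 was called lower (-1.07, adjusted p = 0.0035) and FLO11 higher (3.10, adjusted p = 2.4e-06). The medium WGA fraction lay near the high one for FLO1 (47.6 and 56.2) and FLO10 (72.2 and 137), and its TEC1 values were 359 and 606. In wild type, with 1 sample each, TEC1 was at 1105 in the low and 359 in the high fraction, FLO11 at 325 and 81.3, and FLO1 at 156 and 79.7, whereas FLO10 was at 91.0 (7 reads) and 118. BSC1 was at 130 (10 reads) in the wild-type low fraction and 169 in the high one. The order low above high held in both strains for TEC1, FLO1, FLO5, FLO9 and FLO11, but not for FLO10 or BSC1. For FLO9 it rests on 5 reads in the wild-type low fraction and 4 in that of Pgpd-HAP4 from E36. For FLO1 it rests on 12 reads in the wild-type low fraction.

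The low WGA libraries were shallow, with 565971 and 2256788 reads against 5455871 and 5483467 for high WGA, so that 24 FLO1 reads stood behind one low WGA value. With quantile normalisation, which lowered the median of all genes by 0.22, 2 were called, and FLO1 (1.76, adjusted p = 0.024) and FLO5 (1.61, adjusted p = 0.013) were lost. FLO1 and FLO5 were also lost without the high WGA sample of E66 (adjusted p = 0.032 and 0.019). Daughter genes did not move as one: CTS1 stood at 64540 to 68320 in low WGA cells, against 5126 to 9422 in high WGA cells, while the other 9 had lower means and 3 of them passed. The genes specific to alpha cells, which diploids repress, summed to 1951 to 2177 in low WGA cells, against 273.6 to 347.9. The part of either in the result was not tested.

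**Figure D3:**
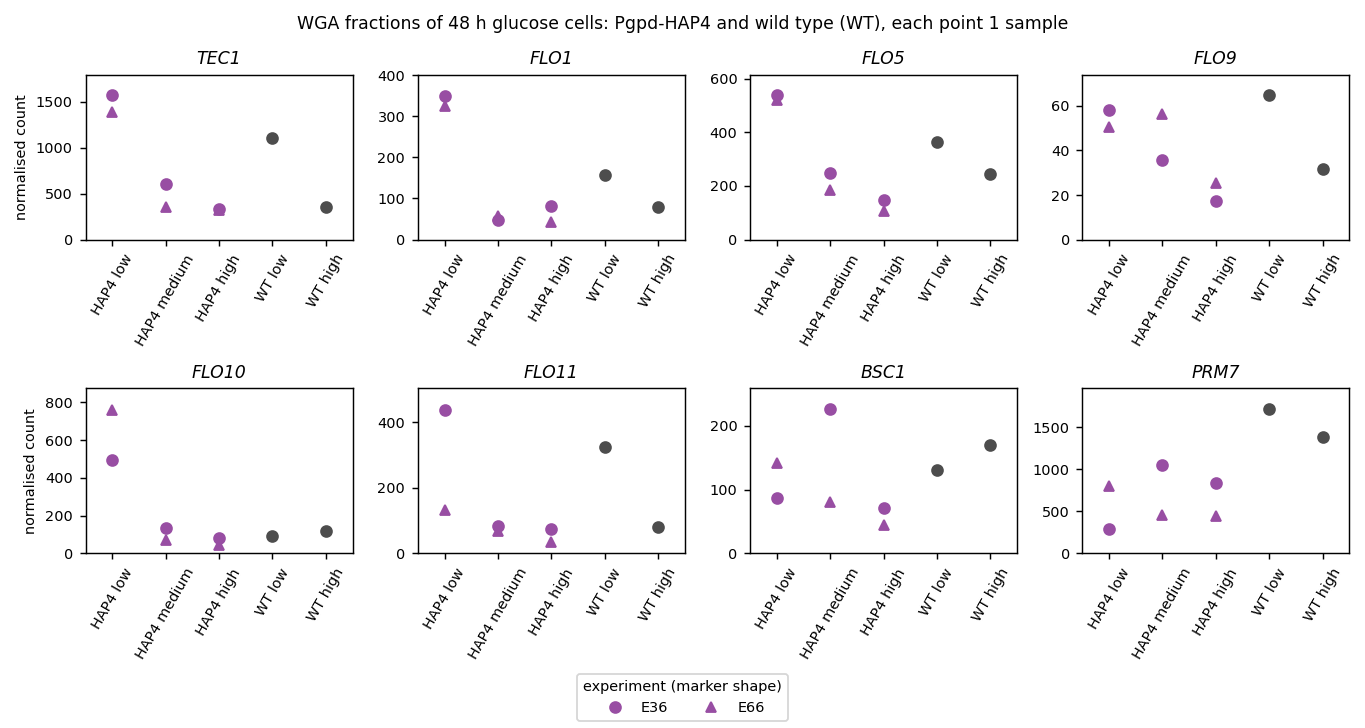
Normalised counts (linear axis from 0) in the low, medium and high WGA fractions of Pgpd-HAP4 cells (HAP4 on the axis) and the low and high fractions of wild type (WT), all aged 48 h on glucose, with 1 point per sample (circles E36, triangles E66). In Pgpd-HAP4 the low WGA points lie above the high WGA points for each gene but PRM7, for which they overlap.

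The tec1 strain shows the other members without the regulator, on glucose and with 1 sample per age, so nothing was tested there. TEC1 had 0 reads at log phase and 8 at 48 h (6.28 normalised counts) in tec1 cells, against 120 and 164 normalised counts in wild type at log phase and 852 and 913 at 48 h in the same table. FLO1 was at 153 at 48 h and 44.4 at log phase in tec1 cells, and FLO10 at 281 and 99.6. FLO11, a known target of Tec1, was at 150 and 67.6, against 104 and 140 in wild type at 48 h and 64.8 and 70.3 at log phase. Each of these 3 genes was thus higher in the old than in the young tec1 sample on the deposited scale. PRM7 was at 1393 and 446, and BSC1 at 392 and 193.

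Across the 13 mutants on glucose, TEC1 at 48 h was lowest, after tec1 itself, in hap4 (384) and cat8 (411) cells and highest in pmr1 cells (1197). In 9 of 13 mutants the value lay below both wild-type samples and in 3 above. FLO1 at 48 h ran between 81.2 in cat8 and 278 in pmr1 cells (median 146), against 94.3 and 153 in wild type, and FLO10 between 159 in cat8 and 285 in pmr1 cells (median 255), against 222 and 225. The cat8 sample was thus the lowest and the pmr1 sample the highest of the 13 for both. BSC1 and PRM7 at log phase were below both wild-type samples in 13 of 13 mutants, with medians of 74.8 and 203, against 485 and 970 for BSC1 and 1237 and 2256 for PRM7 in wild type. Those 2 wild-type samples are of other experiments than the mutants, and in the carbon source table, which was normalised separately, they were the higher 2 of its 3 wild-type log phase samples on glucose, so strain and experiment cannot be told apart.

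**Figure D4:**
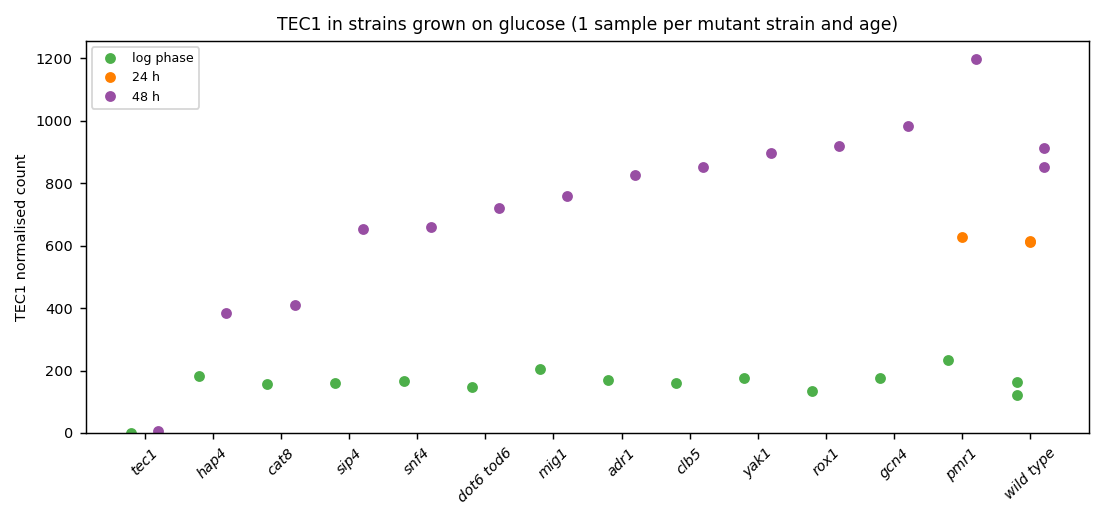
Normalised counts of TEC1 in each strain grown on glucose, at log phase and 48 h (24 h where sampled), with 1 point per sample. The tec1 strain stands at 0 and 6.28, and hap4 (384) and cat8 (411) are the lowest of the others at 48 h.

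Other genes of the pathway are described by counts alone, since the lists were drawn up with earlier results of these data known. Over all genes, 51.7% were called at 48 h on glucose and 5.48% on galactose. On glucose at 48 h, 4 of 12 genes of the filamentation MAP kinase cascade rose and 0 fell (median 0.24; 5 and 1 as deposited), led by the membrane anchor OPY2 (log2 change 2.04, adjusted p = 1.0e-07), the signalling mucin MSB2 (1.30, adjusted p = 1.1e-05) and the kinase KSS1 (0.99, adjusted p = 3.7e-05). On galactose 2 of 12 rose and 0 fell (median 0.16), OPY2 (0.77, adjusted p = 0.0060) and KSS1 (0.58, adjusted p = 0.0098). Of 18 transcription factors of filamentation, 3 rose and 5 fell on glucose (median -0.20), but 5 rose and 3 fell as deposited (median 0.01), and 3 rose and 1 fell on galactose (median -0.02). HMS1, whose product is linked to pseudohyphal growth, rose on both, by 2.97 (adjusted p = 9.0e-04) on glucose and 3.35 (adjusted p = 2.8e-04) on galactose. On glucose the stress-induced repressor XBP1 rose by 3.83 (adjusted p = 8.7e-06) and MIT1 changed by -1.14 (adjusted p = 3.9e-05). On galactose MGA1 rose by 3.40 (adjusted p = 0.0020) and SOK2 by 1.12 (adjusted p = 0.0047).

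Against the same 51.7% of all genes on glucose, the nutrient and protein kinase A arm, which acts on FLO11 beside the MAP kinase cascade, had 2 of 9 genes higher and 2 lower on glucose at 48 h (2 and 1 as deposited). The higher were the ammonium permease MEP2 (1.07, adjusted p = 3.6e-04) and the sugar receptor GPR1 (0.61, adjusted p = 1.3e-04), and the GTPase RAS2 was lower (-0.98, adjusted p = 5.2e-05). On galactose 0 were called by limma and 0 by limma-voom, with 2 at an unadjusted p under 0.05. Mating adhesins, the cell wall proteins by which partners of opposite type bind, had 2 of 4 higher and 0 lower on glucose, AGA1 (1.59, adjusted p = 2.4e-04) and SAG1 (0.94, adjusted p = 5.7e-05). On galactose 0 of the 4 were called by limma and 0 by limma-voom, with 1 at an unadjusted p under 0.05. Of 3 output genes tested, 1 rose and 0 fell on each sugar, the cell wall gene SVS1 (1.66, adjusted p = 4.1e-05 on glucose, and 1.87, adjusted p = 2.2e-04 on galactose). In the same samples daughter genes summed to 13600 to 16330 at 48 h on glucose, against 34290 to 40620 at log phase, with 8 of 10 lower, and to 23950 to 29920 on galactose, against 30110 to 37810, with 0 of 10 called by limma or limma-voom and 2 at an unadjusted p under 0.05. Genes specific to alpha cells summed to 755.3 to 963.5 at 48 h on glucose, against 258 to 304.6 at log phase, with 3 of 4 higher. The part of either list in the changes of the members was not tested.

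Likeness of pattern was measured as Pearson's r of mean deposited levels over 21 wild-type groups, with all 5941 genes that were high enough, and is a description of groups that share libraries and depth. TEC1 was most like SPO12, a regulator of exit from mitosis (r = 0.97), SKM1 (0.96) and the cell wall gene PIR3 (0.95). FLO1 was most like SMP1 (0.92), OPI9 and PMD1 (0.91 each), and FLO10 most like YMR084W, YBL113C and RIM15 (0.92 each). FLO11 was most like RTC1 (0.92), ENT2 (0.91) and ESL2 (0.89). BSC1 was most like the mitochondrial malic enzyme MAE1 (0.96), RPA14 and YNL095C (0.92 each), and PRM7 most like SET6 (0.92), MAE1 (0.92) and RPA14 (0.91). FLO5 was most like FLO8 (0.80), TIR2 (0.72) and STE12 (0.71), and FLO9 reached no more than 0.70 with PPG1, 0.67 with ALG13 and 0.66 with CLF1. Among the members, the closest pairs were BSC1 with PRM7 (r = 0.94) and FLO10 with FLO11 (r = 0.83).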

How the data were processed

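RNA was extracted from log phase cultures, purified aged mothers or sorted fractions, and poly(A) libraries were sequenced as single reads of 75 bases. Per the labels and the study's methods, the authors trimmed reads with Trim Galore 0.6.6, mapped them to R64-1-1 with HISAT2 2.1.0, counted them per open reading frame with SeqMonk on the strand of the transcript and deposited log2 counts adjusted by size factors, in 4 separately normalised tables (128 columns, 118 samples, 8 samples in more than one). Whole reads were recovered from these log2 values for 100% of them (within 0.02 of a whole number). The 28 mitochondrial genes were left out. Of the 6664 nuclear identifiers, 5988 matched RefSeq. How reads with several matches were placed is not given in the sources used here.

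Groups followed the labels. The shifted samples carry the age label of log phase, and their 2 days of culture come from the study's methods. The 8 genes and all lists were chosen with earlier results of these data known. Named genes are the 8 and, for each pathway list at 48 h on glucose and on galactose, up to 3 called genes with the largest absolute change, and, for each of the 8, the 3 genes most like it by Pearson's r over wild-type groups. Genes with a mean log2 value of at least 2 (at least 4 in the sorted fractions) were tested with limma 3.58.1 (trend, R 4.3.3) after quantile normalisation of the samples compared, or on the deposited values for sorted fractions. P-values were adjusted by the Benjamini-Hochberg method over all genes tested, and 0.01 was the threshold. Alternatives were the other scaling, no filter, a filter on the second group of each comparison alone, a pseudocount of 4, limma-voom on recovered reads, 1 fit over all groups, a block, and leaving out each sample. The procedure was tested on simulated data. Statements that groups did or did not overlap describe the values alone, and the share of all genes without overlap was not counted.

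Same-numbered or same-experiment samples deviated together in every pair (r above 0.1, with 3 pairs) for galactose at 48 h (0.10 to 0.20), for both shifts against the unshifted cells of the same first sugar (0.11 to 0.17 and 0.12 to 0.17), and in no other comparison with 3 pairs. Sequences were read from RefSeq R64, whose coordinates for the 8 genes are those of the tables. Analyses in Python 3.11.15 used pandas 2.3.3, and figures matplotlib 3.10.9.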

Additional observations from a re-analysis of the deposited data

Results flagged for a closer look

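In wild-type cells aged 24 h on glucose, FLO1 was highest in E34, at 101 normalised counts against 93.5, 93.9 and 94.6 in the other 3 samples, and FLO10 was lowest in the experiment with no code, at 157 against 190, 192 and 195. Each stood apart from the other 3 by more than Dixon's 95% critical value for 4 samples. Chance flags about 1 in 20 groups, and 16 were examined.

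The change between log phase and 48 h differed between galactose and glucose for BSC1, by 4.65 on the log2 scale, and for PRM7, by 3.56 (interaction test in limma, adjusted p = 8.2e-04 and 0.0021). On galactose both were higher at 48 h within all 3 experiments. On glucose both were higher at 48 h in E34, but lower in E30_2 and in the experiment with no code. The size of the difference thus depends on the glucose log phase samples.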

How the results depend on the processing

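On the values as deposited the log2 change turned for FLO1 at 48 h (1.06) and 24 h (0.70) on glucose, FLO9 (0.46) and FLO11 (0.63) at 48 h on glucose, and FLO9 (0.27) and FLO11 (0.68) in cells kept on glucose. As deposited, 4 members were called at 48 h on glucose, 3 on fructose, 3 for galactose against glucose at 48 h and 3 for galactose then glucose against glucose throughout. With quantile normalisation 2 were called for low against high WGA.

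Without the filter on low values the counts were 1 for glucose at 24 h, 1 for galactose at 24 h, 0 for galactose against glucose at log phase and 0 at 48 h, 0 for snf4, 0 for glucose then galactose against glucose throughout, 1 for galactose then glucose against galactose throughout and 0 for glucose then galactose against galactose throughout. Limma-voom called 0 for galactose against glucose at log phase. A single fit over all groups called 2 on fructose, 0 for galactose against glucose at 24 h, 3 for snf4, 2 for glucose then galactose and 2 for galactose then glucose against glucose throughout, and 0 for glucose then galactose against galactose throughout. The replicate block, a fit paired by experiment or number, called 1 at 48 h and 1 at 24 h on glucose, 1 at 24 h on galactose, 3 for galactose against glucose at 48 h, 0 for snf4, 3 for glucose then galactose against glucose throughout and 3 for galactose then glucose against glucose throughout. It could not be fitted for Pgpd-HAP4 at log phase. The causes were not tested.

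Leaving out 1 replicate gave 1 to 3 calls at 48 h and 1 to 2 at 24 h on glucose, 2 to 3 and 1 to 4 on galactose, and 0 to 2 on fructose. For galactose against glucose it gave 0 to 2 at log phase, 1 to 3 at 24 h and 0 to 1 at 48 h, and 2 to 3 for the difference in change. For snf4 it gave 1 to 5 and for WGA 2 to 6. In the shift series it gave 4 to 6 for glucose throughout and 3 to 4 for galactose throughout against log phase, 0 to 2 for glucose then galactose and 0 to 1 for galactose then glucose against glucose throughout, and 2 to 2 and 1 to 2 for galactose then glucose and glucose then galactose against galactose throughout. The 6 comparisons of Pgpd-HAP4, cat8 and cox9 gal80 stayed at 0.

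TEC1 kept its call in each of these fits at 48 h and 24 h on glucose, at 48 h on galactose, in both unshifted series and in the WGA fractions, and PRM7 at 48 h on galactose. A pseudocount of 4 and a filter on the second group of each comparison alone changed the call of none of the 184 and 183 gene results they gave. That filter gave no result for BSC1 in cells kept on galactose, whose log phase values lay below it. Depth limits BSC1 at log phase on galactose (3, 3 and 5 reads in the shift series), FLO9 and the low WGA libraries.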

Other observations

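The members differed in how steadily they moved with age. Over aged samples and the log phase sample of the same experiment, strain and medium, the aged value on the deposited scale was higher in 48 of 51 pairs for FLO1, 46 of 51 for FLO10, 43 of 51 for PRM7, 37 of 48 for BSC1, 33 of 51 for FLO11, 29 of 51 for FLO5 and 20 of 51 for FLO9. Repeat samples of a strain, medium and age within an experiment were left out, as were the 48 h cells of the shift series. These pairs share log phase samples, and on glucose the sign of the change of FLO1, FLO5, FLO9 and FLO11 at 48 h turned with the scaling. The share of such pairs over all genes was not counted. Low genes rose as a class on this scale: the lowest quartile, which held all the flocculins, had a median change of 0.88 at 48 h on glucose. FLO1 moved further than 55.5% of it and FLO10 further than 53.9%.

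Acetate and raffinose, with 1 sample per age, held levels not described above. FLO5 was at 131 after 48 h and 150 after 72 h on acetate, against 197 at log phase, and FLO11 at 136 and 125, against 165. TEC1 was at 606 at 72 h on acetate, below the 1171 of 48 h. On raffinose FLO10 was at 362 after 48 h, against 199 at log phase, and FLO1 at 155 against 50.1. On sucrose PRM7 measured 192 in young cells, then 1996 (24 h) and 925 (48 h).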
